A study of Mus musculus with 8 samples.

Results

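The Pax genes encode transcription factors that bind DNA through a paired domain, and they fall into 4 groups by sequence, namely Pax1 and Pax9, Pax2, Pax5 and Pax8, Pax3 and Pax7, and Pax4 and Pax6. Several of them set up tissues of the trunk that adjoins the limb bud. Pax3 and Pax7 mark the dermomyotome of the somites, from which muscle precursors move into the limb, Pax1 and Pax9 act in the sclerotome that forms the vertebrae, and Pax2 and Pax8 act in the intermediate mesoderm that forms the kidney. Pax4, Pax5 and Pax6 are better known from endocrine pancreas, B cells and midbrain, and eye and neural tube, so that not every member is a gene of trunk and somites. BMP signals from neighbouring tissue pattern the somites and the lateral mesoderm, and SMAD4 is the partner through which receptor-activated SMADs act on chromatin.

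All 9 Pax genes (Pax1 to Pax9) were taken, of 22208 protein-coding symbols on the chromosomes with peaks, and every SMAD4 peak was assigned to them whose centre lay within 100 kb of the gene's 5′ end (mouse build mm9, GENCODE vM1). This gave 1 of the 2073 peaks of the E9.5 list and 9 of the 6185 peaks of the E10.5 list. The lists come from ChIP-seq with an antibody to the FLAG epitope on limb buds of NMRI mouse embryos, which are homozygous for a Smad4 allele with a 3xFLAG tag (Smad4 3xF/3xF, labelled Smad4Flag). All 4 groups carry this allele, with 2 SMAD4 ChIP and 2 input DNA samples per stage (8 samples) and no untagged control. The E9.5 samples are forelimb buds with the attached trunk of about 80 embryos each, which the protocol dates to E9.75, and the E10.5 samples are fore- and hindlimb buds of about 100 embryos each. In the source field, however, each sample is called forelimb bud.

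The labels and the methods thus state trunk tissue for the E9.5 samples alone, whereas the study's description of its results mentions it without naming a stage. Stage and tissue cannot be told apart. Each list is a merge of 2 replicates by the authors, so no value has a replicate error and no stage or gene was tested against another. The depth of the libraries is unknown, the E10.5 list is the longer of the 2 lists, and where no peak was listed SMAD4 may still bind. The score of a peak is the authors' value and was used for ranks within a list. A peak list holds no expression, and the tissue labels could not be checked against marker genes.

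At E10.5, 7 of the 9 Pax genes had a SMAD4 peak within 100 kb, namely Pax1, Pax2, Pax3, Pax4, Pax6, Pax7 and Pax9. This compares with 52.9% of all protein-coding genes. At E9.5 Pax3 was the only member with a peak, 1 of 9 genes against 20.5% of all protein-coding genes. No Pax gene had a peak that overlapped a peak of the other stage, as 5.51% of all genes did. Pax3 was also the only member with a peak of each stage (14.6% of all genes), 6 members had an E10.5 peak without an E9.5 peak (38.3%), and Pax5 and Pax8 had no peak in either list (41.2%). With 9 genes, each of these counts moves by 11.1 percentage points per gene, and none was tested.

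**Figure D1:**
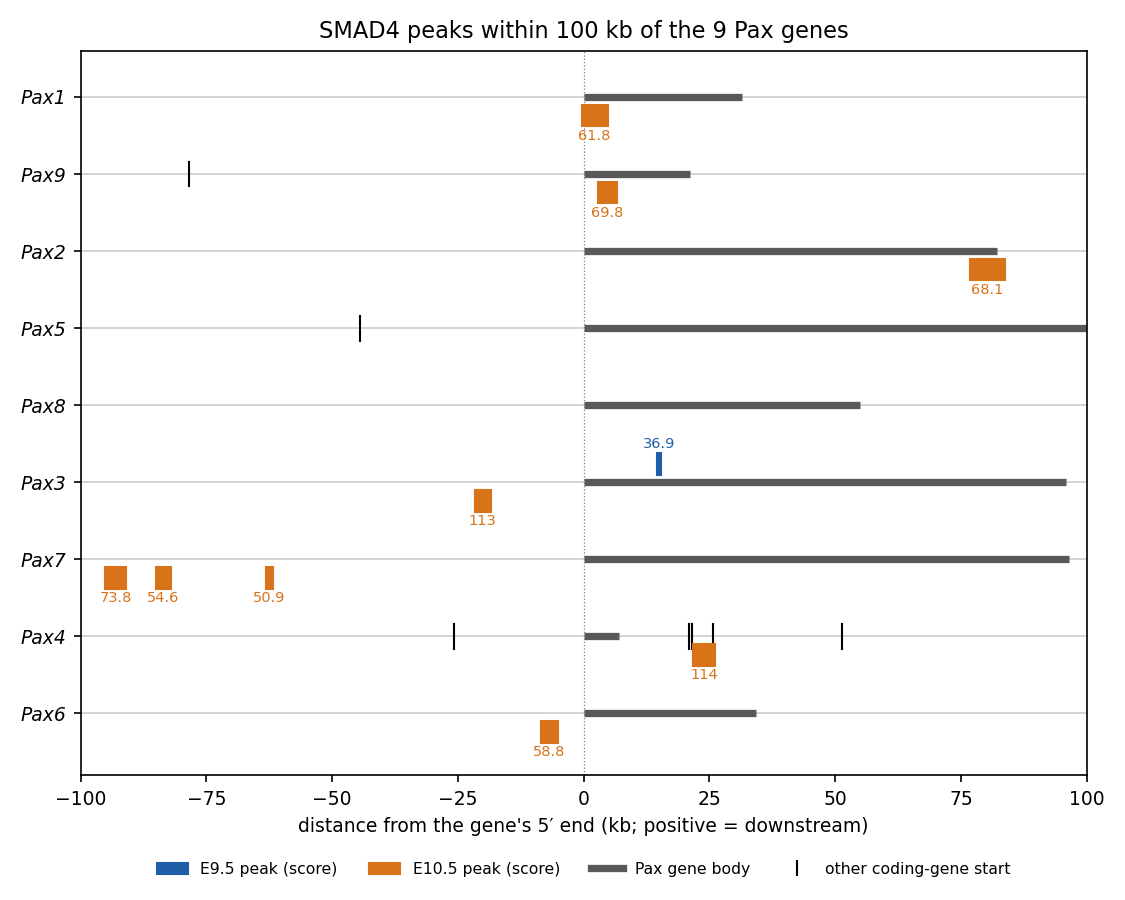
Position of SMAD4 peaks (boxes to scale, E9.5 blue above the line, E10.5 orange below, with the authors' score) relative to the 5′ end of each Pax gene, in kb and in the direction of transcription. The E10.5 peaks lie in the 5′ part of Pax1 and Pax9, at the 3′ end of Pax2, upstream of Pax3, Pax6 and Pax7 and downstream of Pax4, the only E9.5 peak lies in Pax3, and the bar of Pax5 is cut at 100 kb.

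Pax3 (chr1:78097842-78193709, minus strand), which directs muscle precursors and neural crest, carried the only E9.5 peak of the family. This peak, chr1:78178260-78179105, lay in an intron with its centre 15.0 kb downstream of the 5′ end. It was 846 bp wide and scored 36.9, which is rank 1981 of 2073, or 95.6% of the way down the list. The E10.5 peak of Pax3 lay on the other side of the 5′ end, at chr1:78212239-78215271 and 20 kb upstream, outside any annotated gene. It was 3033 bp wide and scored 113, rank 315 of 6185, and so was among the best 5.09% of its list. The 2 peaks are 33.1 kb apart, and SMAD4 was therefore recorded at different regions of Pax3 in the 2 lists.

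The sequences of the Pax3 peaks also differed, and are shown because the E9.5 peak holds an array of the SMAD box CAGAC and the E10.5 peak holds the GC-rich form GGCGCC. The stretches of 150 bases are given 5′ to 3′ on the plus strand of mm9, opposite to the direction of Pax3, at chr1:78178771-78178920 for E9.5 and chr1:78213547-78213696 for E10.5. Capitals mark CAGAC or its reverse complement GTCTG in the former and GGCGCC in the latter.
Pax3 E9.5: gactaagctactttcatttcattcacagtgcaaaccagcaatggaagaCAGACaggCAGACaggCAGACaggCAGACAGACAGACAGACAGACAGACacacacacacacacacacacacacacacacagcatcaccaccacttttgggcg
Pax3 E10.5: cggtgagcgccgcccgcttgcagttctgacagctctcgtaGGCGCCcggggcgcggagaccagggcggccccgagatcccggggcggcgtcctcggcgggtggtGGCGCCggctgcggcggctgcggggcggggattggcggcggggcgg

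The E9.5 stretch is a simple repeat. It holds 9 of the 10 CAGAC matches of the peak within 60 bp, the last 6 of them overlap by a base, and a run of CA dinucleotides follows. The array begins 136 bp from the peak centre, so that only 2 of the boxes lie within 300 bp around the centre. The peak had 11.8 boxes per kb, above 98.6% of the E9.5 peaks and against a list median of 2.87. In the whole E9.5 list, 10 peaks (0.482%) held 9 or more boxes within 60 bp, as did 23 E10.5 peaks (0.372%). This count was made after the repeat had been seen. The E10.5 peak of Pax3 had the fewest boxes of the family, 3 or 0.989 per kb, which was below the list median of 2.74. It held 3 GGCGCC sites, of which 2 lay within 300 bp around its centre and none of the boxes did. With 61.1% GC and an observed to expected ratio of CpG dinucleotides of 0.753, it was the richest in GC and CpG of all 10 peaks, above 91.0% and 86.2% of the E10.5 list.

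Pax7 (chr4:139292977-139389445, minus strand), the paralogue of Pax3 in dermomyotome and muscle stem cells, had 3 E10.5 peaks, the most of any member. Of all genes, 12.5% had 3 or more E10.5 peaks within 100 kb. All 3 lay upstream, in a stretch without a protein-coding gene. The nearest, chr4:139451165-139452668, was centred 62.5 kb from the 5′ end, was the narrowest E10.5 peak of the family (1504 bp) and scored lowest (50.9, rank 5073). The next, chr4:139471590-139474425, lay at -83.6 kb with a score of 54.6 (rank 4080). The third, chr4:139480323-139484671, lay at -93.1 kb and scored 73.8 (rank 1512). The last 2 peaks are separated by 5.90 kb, and their nearest coding start was that of Klhdc7a, at 50.9 and 41.4 kb. The third overlapped the non-coding genes Gm13028 and 4933427I22Rik. The next E10.5 peak beyond the limit lay 108 kb downstream, past the 3′ end of the gene (chr4:139279368-139283264, score 59.0). The nearest E9.5 peak lay upstream at -1506 kb.

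The Pax7 peaks had CpG ratios of 0.150, 0.180 and 0.312 in the order above. The first 2 were the lowest values of the family and below the list median of 0.304, and the third was close to that median. They were also the 3 E10.5 peaks with the most boxes per kb, at 4.65, 3.53 and 4.37, all above the list median of 2.74. No other E10.5 peak of the family was above that median. Of the 19 boxes of the third peak, 4 lie in 300 bases with runs of CA dinucleotides (chr4:139480605-139480904). Its density thus comes in part from repetitive sequence, and that part was not tested. A stretch of 60 bases with the most boxes (2) is printed for each Pax7 peak, on the plus strand, for comparison with the array of Pax3. The peaks at -62.5 and -93.1 kb hold other stretches with 2 boxes, and the first is printed. At -62.5 kb another pair lies closer together, 20.5 and 9.5 bp from the peak centre. The printed stretches lie at chr4:139451686-139451745, chr4:139472786-139472845 and chr4:139480738-139480797, and capitals mark CAGAC or GTCTG.
Pax7 at -62.5 kb: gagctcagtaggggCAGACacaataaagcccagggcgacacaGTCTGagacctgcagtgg
Pax7 at -83.6 kb: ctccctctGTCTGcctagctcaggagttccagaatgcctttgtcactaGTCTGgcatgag
Pax7 at -93.1 kb: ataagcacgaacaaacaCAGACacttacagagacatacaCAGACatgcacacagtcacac

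Each of these windows holds 2 boxes, against 9 in the array of Pax3. The first holds a box on each strand, the second has both on the minus strand and the third both on the plus strand. The most boxes in 60 bases were also 2 in the median E10.5 peak, and at Pax1, Pax2, Pax4 and Pax9.

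The sclerotome genes Pax1 and Pax9 were the members with an E10.5 peak at their own transcript starts. At Pax1 (chr2:147187661-147219031, plus strand) the peak chr2:147187258-147192412 spanned the 5′ end and reached 4.75 kb into the gene, over 1153 coding bases. Its centre lay in an intron, 2.17 kb from the gene's 5′ end and 0.895 kb from the nearest start of a Pax1 transcript. The start of the antisense non-coding gene AI646519 lay inside the same peak. The peak was 5155 bp wide, wider than 84.3% of the list, with a score of 61.8 (rank 2794). At Pax9 (chr12:57792754-57813809, plus strand) the peak chr12:57795583-57799295 lay inside the gene and was centred 4.68 kb from the 5′ end and 0.723 kb from the nearest Pax9 transcript start. The centre is annotated as an exon of a transcript with no coding sequence there. This peak was 3713 bp wide and scored 69.8 (rank 1853). Both genes therefore had a broad peak of middling score over the 5′ part of the transcribed region.

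The Pax1 and Pax9 peaks had 54.8% and 54.2% GC, CpG ratios of 0.527 and 0.623, and 2.52 and 2.42 boxes per kb. The peaks at Pax2 and Pax4 had a similar GC content (55.0% and 54.6%) and that at Pax6 a similar CpG ratio (0.501), so that these values were not particular to the pair. A stretch with the most boxes in 60 bases (2) outside annotated untranslated sequence is printed for each, since these are the peaks closest to a Pax start. The stretches lie at chr2:147188469-147188528 and chr12:57797373-57797432 on the plus strand. The Pax1 peak holds other stretches with 2 boxes, some of them closer together, and the first is printed. Capitals mark CAGAC or GTCTG.
Pax1: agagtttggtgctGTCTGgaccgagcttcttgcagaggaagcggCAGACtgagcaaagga
Pax9: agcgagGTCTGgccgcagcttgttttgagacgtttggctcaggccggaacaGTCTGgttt

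Beyond 100 kb, the next E10.5 peak near each of these genes was closer to an Nkx2 gene of the same neighbourhood. At Pax1 it lay 179 kb upstream and 11.4 kb from the start of Nkx2-2 (chr2:147006182-147010908, score 93.1, rank 693). At Pax9 it lay 156 kb upstream and 1.58 kb from the start of Nkx2-1 (chr12:57633825-57638808, score 75.2, rank 1415). Both scored above the peaks inside Pax1 and Pax9. The nearest E9.5 peaks lay upstream, at -1192 kb from Pax1 and -436 kb from Pax9.

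Among the kidney genes, Pax2 (chr19:44830539-44912758, plus strand) had an E10.5 peak at the opposite end of the gene. The peak chr19:44907323-44914386 was centred 80.3 kb from the 5′ end and just inside the 3′ end (-1.9 kb), in the 3′ untranslated region, and covered 2244 untranslated and 331 coding bases of Pax2. It was the widest of the family (7064 bp, wider than 94.4% of the list) and scored 68.1 (rank 2009). It also covered the start of the non-coding gene 1700039E22Rik, which lies 0.426 kb from its centre and is read in the opposite direction. The position of the Pax2 peak thus coincided with a gene end and with the start of another transcript. The nearest E9.5 peak lay 151 kb upstream of Pax2, 41.7 kb from the start of Hif1an, with a score of 33.6 (rank 2051).

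Pax5 and Pax8, the paralogues of Pax2, had no peak within the limit. In Pax5 (chr4:44544017-44724318, minus strand), a gene of 180302 bp, an E10.5 peak lay inside the gene but 145 kb from its 5′ end (chr4:44576163-44582036, score 53.4, rank 4364), and the nearest E9.5 peak lay at -341 kb. For Pax8 (chr2:24276071-24331119, minus strand) the nearest E10.5 peak was 150 kb upstream (chr2:24478790-24482889, score 59.3, rank 3179) and the nearest E9.5 peak at -1233 kb. Both genes thus had an E10.5 peak between 100 and 200 kb, beyond the limit used here.

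Pax6 (chr2:105509053-105543317, plus strand), a master regulator of eye development, had an E10.5 peak 6.85 kb upstream, at chr2:105500492-105503922, with a score of 58.8 (rank 3275). It lay within the antisense non-coding gene Pax6os1 and no other coding gene was nearer. With 49.0% GC it was the E10.5 peak of the family with the least GC. The nearest E9.5 peak was 147 kb upstream (chr2:105361702-105363127, score 40.8, rank 1884), and the next E10.5 peak lay beside it at 143 kb (chr2:105364850-105366669, score 36.2, rank 6041). These 2 remote peaks do not overlap and were low in both lists.

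Pax4 (chr6:28392334-28399353, minus strand), which acts in endocrine pancreas, had the best-scored peak of the family by a narrow margin (chr6:28373133-28377517, score 114, rank 310). Pax4 is not the nearest gene to this peak. The peak lay 24.0 kb downstream of the 5′ end and 17.0 kb past the 3′ end, its centre fell within introns of Arf5 and Gcc1, and it covered the start of Arf5, 1.76 kb from the centre. In all, 6 coding starts lay within 100 kb of its centre. The score of the Pax4 peak therefore belongs to a region of several genes.

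Considered together, the 9 E10.5 peaks lay upstream of the 5′ end in 5 cases (Pax3, Pax6 and the 3 of Pax7) and downstream in 4. The Pax gene was the nearest coding gene for 6 of them, the exceptions being the peak at Pax4 and 2 of the peaks at Pax7. The centre was in the body of the Pax gene in 3 cases and outside every coding gene in 5. The scores ranged from 50.9 to 114 with a median of 68.1, against a list median of 59.8, and 6 of 9 were above that median. Only the Pax3 and Pax4 peaks scored 100 or more, as did 522 of the 6185 peaks of the list. The 9 peaks were 1504 to 7064 bp wide with a median of 3713 bp, against 2552 bp for the list, and 8 of 9 were wider than the list median.

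**Figure D2:**
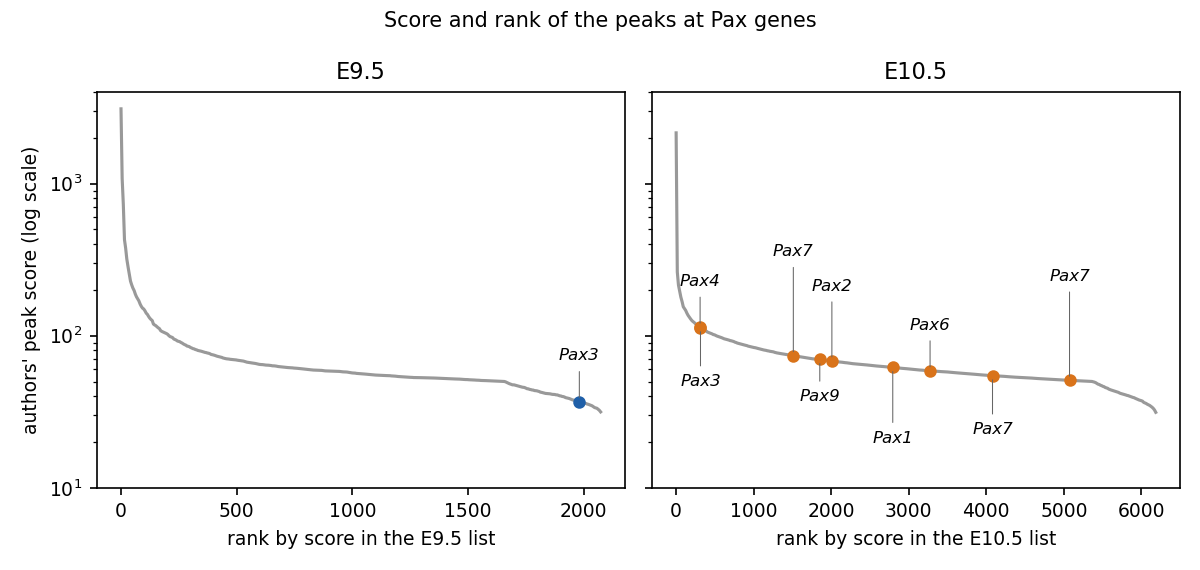
Authors' peak score (log scale) against rank within the E9.5 list (left) and the E10.5 list (right), with all peaks as a grey line and the peaks at Pax genes as points. The only E9.5 peak, at Pax3, has rank 1981 of 2073, whereas the E10.5 peaks spread from rank 310 to rank 5073 of 6185.

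The base composition of the E10.5 peaks ranged from 49.0% to 61.1% GC and from 0.150 to 0.753 in CpG ratio, with medians of 54.2% and 0.434. The list medians were 53.1% and 0.304. The lowest ratio was that of the Pax7 peak at -62.5 kb and the highest that of the upstream Pax3 peak, and 7 of the 9 peaks were above the list median. The E9.5 peak of Pax3 had 47.9% GC and a ratio of 0.289, against list medians of 50.4% and 0.266.

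**Figure D3:**
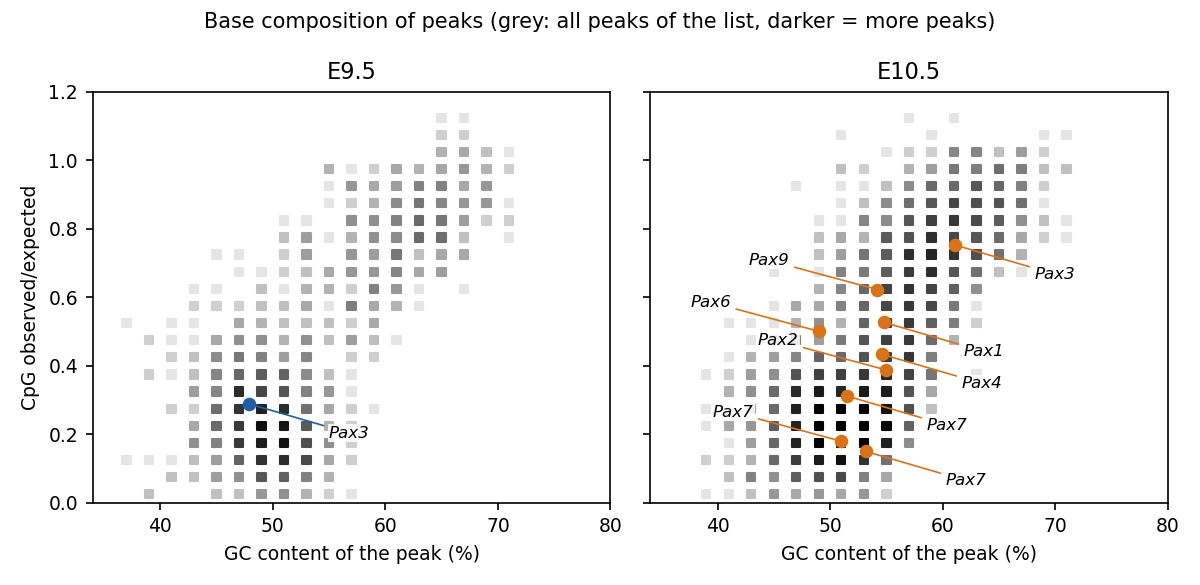
GC content (%) against the observed to expected ratio of CpG for each peak at a Pax gene (coloured points) over all peaks of the list (grey squares, darker with more peaks), at E9.5 (left) and E10.5 (right). The Pax3 peak of E10.5 lies highest at 61.1% and 0.753, and the Pax7 peaks lie lowest among the E10.5 peaks at ratios of 0.150 to 0.312.

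SMAD binding sequences were counted on both strands in 300 bp around each peak centre. The box CAGAC was present in 5 of 9 E10.5 windows (55.6%, Wilson 95% interval 26.7% to 81.1%), and in 53.2% of all E10.5 windows. The windows with a box were those at Pax1, with 4, at Pax9 and the nearest Pax7 peak, with 2 each, and at Pax2 and Pax4, with 1 each. The longer core CAGACC, which contains the box, was present in 2 of 9 windows (22.2%, against 19.7% of all), at Pax7 and Pax9. GGCGCC occurred in 3 of 9 (33.3%, interval 12.1% to 64.6%), at Pax2, Pax3 and the farthest Pax7 peak, against 13.1% of all. The intervals cover counting error only, and the 3 Pax7 peaks share a region.

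The palindrome GTCTAGAC was absent from all 10 peaks over their whole length, as was GGCGCC followed after 5 bases by GTCT, the arrangement of BMP responsive elements. These were also rare in the lists, at 3.62% and 0.566% of whole E10.5 peaks and 4.53% and 0.579% of whole E9.5 peaks. Over the whole peak, the PKNOX1 sequence TGACTGAC was present in 3 of 9 E10.5 peaks (33.3%, interval 12.1% to 64.6%), at Pax3, Pax4 and Pax6, against 11.6% of the list. In the windows of 300 bp it was in 0 of 9 (1.41% of the list) and in those of 600 bp in 1 of 9 (2.49%). GGCGCC was present in 7 of 9 whole peaks (77.8%, interval 45.3% to 93.7%), against 44.0% of the list. Shares over whole peaks grow with width, and most Pax peaks were wider than the list median. The part of width in these shares was not tested.

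Genes were also counted by their neighbours, and a link between neighbours and peaks was not tested. Of the 9 Pax genes, 6 (Pax1, Pax2, Pax3, Pax6, Pax7 and Pax8) had no other coding start within 100 kb, as did 12.4% of all protein-coding genes. Pax5 and Pax9 had 1 each and Pax4 had 5, against a median of 3 over all genes. Among the 2749 genes with such a neighbourhood, 32.7% had an E10.5 peak and 15.6% an E9.5 peak. Of the 6 Pax genes, 5 had an E10.5 peak and 1 an E9.5 peak. This split by neighbourhood was chosen after the positions had been seen.

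With the distance varied, the share of Pax genes with an E10.5 peak was 33.3% at 10 kb and at 20 kb, 55.6% at 50 kb and 100% at 200 kb, against 16.6%, 23.3%, 37.8% and 67.6% of all protein-coding genes. For E9.5 it was 0% at 10 kb, 11.1% at 20 kb and at 50 kb, and 33.3% at 200 kb, against 3.60%, 5.55%, 11.4% and 34.5%. At E10.5 the share of the family was above that of all genes at each of these distances, and at E9.5 it was above it at 20 kb, through the peak of Pax3 alone, and near or below it at the others.

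**Figure D4:**
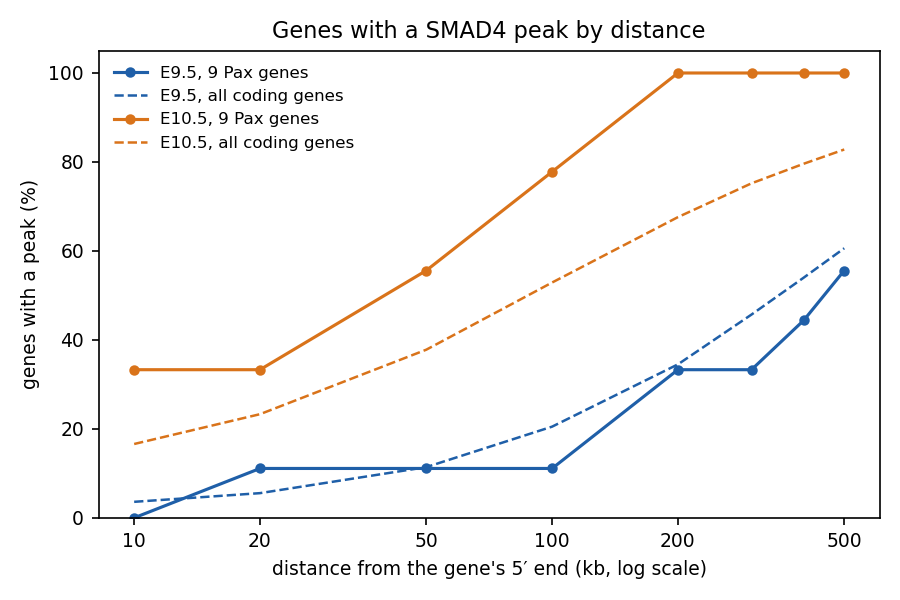
Percentage of genes with a SMAD4 peak centred within the distance on the x axis (kb, log scale) for the 9 Pax genes (points and solid lines) and all 22208 protein-coding genes (dashed lines), at E9.5 (blue) and E10.5 (orange). All 9 Pax genes have an E10.5 peak within 200 kb, whereas 3 of them have an E9.5 peak at that distance.

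Other genes of somites and kidney, picked by tissue, were counted in the same way. Of 16 genes of the dermomyotome and muscle lineage, 2 (En1 and Tcf15) carried E9.5 peaks and 9 carried E10.5 peaks. The best-ranked E9.5 peak of this list lay at Tcf15 (chr2:151966652-151970892, rank 501, -0.525 kb). Of 16 genes of the sclerotome and segmentation, 3 (Sox9, Mesp1 and Mesp2) had a peak at E9.5 and 10 at E10.5. Their best-ranked peaks lay at Mesp1 at E9.5 (chr7:86859477-86860963, rank 462, 78.5 kb) and Lfng at E10.5 (chr5:141038004-141045484, rank 277, -41.6 kb). Neither list had a peak shared by the stages. The shares over all protein-coding genes were 20.5% at E9.5, 52.9% at E10.5 and 5.51% for a shared peak, and the E10.5 counts of both lists were near the E10.5 share.

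Of 13 genes of kidney and intermediate mesoderm, 5 (Lhx1, Osr1, Wt1, Hoxd11 and Hoxa11) carried E9.5 peaks and 8 carried E10.5 peaks, and 2, Hoxd11 and Hoxa11, had a shared peak. The best-ranked peaks of this list lay at Hoxd11 at E9.5 (chr2:74541660-74544206, rank 137, 25.5 kb) and Hoxa11 at E10.5 (chr6:52139871-52142879, rank 454, 54.8 kb). Whether another gene starts nearer to these peaks was not determined. Hoxa11 carried 4 and Hoxd11 carried 1 of the 8 E9.5 peaks of the list, and each carried 6 of its 23 E10.5 peaks. The counts of peaks in this list thus rest largely on these Hox genes. The genes with an E9.5 peak are named here because they are few, after the counts had been seen. Further transcription factor families were counted for comparison. An E9.5 peak was found at 1 of 10 T-box, 1 of 6 Irx and 1 of 6 Gata genes, and an E10.5 peak at 5, 4 and 3 of them, respectively, with no shared peak in any of these families. The counts of the kidney list and of these families stand beside the same shares of 20.5%, 52.9% and 5.51% of all protein-coding genes. With so few genes in a list or family, nothing particular to it can be read from them. The best-ranked E10.5 peaks of these families had ranks 2300 (Tbx3), 31 (Irx5) and 285 (Gata2), against 310 for the Pax genes. The best-ranked E9.5 peaks had ranks 874 (Tbx20), 1410 (Irx3) and 141 (Gata4), against 1981. Neighbouring genes of a list can share a peak, such as Mesp1 and Mesp2, and such genes are not independent.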

How the data were processed

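SMAD4 ChIP-seq peak lists of E9.5 and E10.5 limb buds were used as deposited. The authors trimmed reads, aligned them to mm9 with Bowtie 1.1.0 (unique matches, versions from the submitters' processing notes), called peaks with MACS 1.4 per replicate against the input of the same sample, and merged replicates with MSPC, which kept only peaks found in both. The deposited score of a peak has no unit in the files and served only for ranks within a list (ties share the better rank) and thresholds. According to the study's methods, a merged peak took the better MACS P-value of its replicates. The files do not say whether the score derives from it. Input samples have no values of their own here.

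Distances run from the peak centre to the GENCODE vM1 gene 5′ end (NCBIM37, the same build), with 1-based coordinates. Peaks were shared if they overlapped by at least 1 bp. CpG ratios are CpG count × length / (C × G). Sequences were read from the mm9 genome. Tables were handled with pandas 2.3.3 and NumPy 2.4.6 in Python 3.11.15, intervals came from SciPy 1.17.1 and plots from Matplotlib 3.10.9. The assignment, overlap and sequence searches were tested on simulated data. No test was run, since each stage has 1 merged list. The members and gene lists were chosen with earlier results of these data known. All peaks within the limit and all 9 genes were named, with the best-ranked peak of each other list, except the E10.5 peak of the muscle list, which is not reported here. The alternatives covered distance, gene start, peak edge, score, list length, nearest gene, overlap and window.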

Additional observations from a re-analysis of the deposited data

How the results depend on the processing

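No paired analysis was possible because the replicates of each stage had been merged, and for the same reason no replicate could be left out. The counts at Pax genes moved mainly with distance and score. Within 50 kb, the number of E10.5 peaks was 5, and 11.4% and 37.8% of all coding genes had a peak at E9.5 and at E10.5. Within 200 kb, 3 Pax genes had an E9.5 peak (3 peaks), the E10.5 peaks were 17, and the shares of all genes were 34.5% and 67.6%. Within 500 kb, 5 Pax genes had an E9.5 peak (8 peaks), the E10.5 peaks were 36, 1 gene had 1 shared pair, and the shares were 60.6% and 82.8%. With a score of 100 or more, 0 Pax genes kept an E9.5 peak (0 peaks) and 2 an E10.5 peak (2 peaks), and the shares were 3.03% and 8.76%. With a score of 50 or more, chosen after seeing the data, the E9.5 peak of Pax3 was lost (0 genes, 0 peaks) and all E10.5 peaks were kept, with shares of 17.6% and 50.1%. With an E10.5 list as short as the E9.5 list, 5 E10.5 peaks at 5 Pax genes remained, and 28.0% of all coding genes had an E10.5 peak. With each peak given to its nearest coding gene alone, 6 Pax genes had an E10.5 peak, Pax4 had none, and the shares of all coding genes were 6.78% and 20.4%. The shares of all genes under these last 2 settings were added after seeing the data. With any transcript start, the shares were 21.7% and 54.7%, and the Pax counts were the same. The share of E10.5 windows with a SMAD box was 100% over whole peaks, 88.9% in 600 bp and 22.2% with the longer core, near the 98.2%, 77.8% and 19.7% of the whole list. The core was in 0% of the E9.5 windows (1 peak), against 21.0% of that list. In all, 35 values moved and 47, some of them given above, did not move by more than the limit set for them. That limit was wide. The number of Pax genes with an E10.5 peak, 7 in the main setting, counted as not moved at 5 within 50 kb and at 9 within 200 kb. The unknown depth limits every statement on absence of a peak.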
